A study of Caenorhabditis elegans with 8 samples.

Results

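DAF-16, the only FOXO factor of the nematode Caenorhabditis elegans, bound many of the same regions in daf-2(-) and wild-type (WT) worms, and the regions described here are those shared peaks whose summit was taller in daf-2(-). A WT peak that overlapped a daf-2(-) peak by at least 1 bp was paired with the overlapping daf-2(-) peak of nearest summit, and the pair was kept where the daf-2(-) height of the summit exceeded the WT height. The height of the summit is the number of ChIP tags piled up at the highest point of a peak, and it was not scaled to library size. The members were thus chosen by measured heights. They numbered 291 of 4717 shared pairs, 6.17% of all pairs, and the other 4426 pairs had a WT summit that was taller or of equal height. The whole lists held 6859 peaks in daf-2(-) and 5396 in WT.

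The study mapped endogenous DAF-16 by chromatin immunoprecipitation and sequencing (ChIP-seq) in mixed-stage worms grown at 20 °C. The strains used here were daf-2(-), which carries allele e1370 of the gene for the insulin/IGF-1-like receptor, a temperature-sensitive allele that lowers receptor function without removing it, and WT (N2). Strains that lack DAF-16, daf-16(-) with allele mgDf50 and daf-16(-);daf-2(-) with both alleles, entered only through the peaks that the authors left out of the lists. Each strain had 1 ChIP and 1 input library made from pooled chromatin of whole worms at mixed stages, so no spread between replicates exists, no test between the strains was possible, and a taller summit cannot be told apart from a deeper library. Tags inside peaks summed to 1051563 in the daf-2(-) list and 1315194 in the WT list, whereas the ChIP library of daf-2(-) had more aligned reads than that of WT, so scaling to aligned reads lowers every daf-2(-) over WT ratio.

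Insulin/IGF-1-like signalling (IIS) through the receptor DAF-2 leads to phosphorylation of DAF-16 and keeps much of it in the cytosol. When daf-2 is mutated, more DAF-16 enters the nucleus, and DAF-16 is required for the long life and stress resistance of these worms. Known direct targets include sod-3, which encodes a mitochondrial superoxide dismutase, and mtl-1, which encodes a metallothionein.

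For 3 promoters among the taller pairs the study had designed PCR primers to measure DAF-16 binding, and these sequences are shown because they mark bound promoters that were also assayed one by one. Primers are given 5′ to 3′, and their positions in the genome were not worked out here. The sod-3 pair lies on chromosome X, and the other pairs lie on chromosome V.
sod-3 forward: ccgaaaattgacctttgac
sod-3 reverse: caaagacctcatcaacagca
ZK742.4 forward: ctgcatgggccctcaaagta
ZK742.4 reverse: gggtcgcccaaagtcatcat
mtl-1 forward: gacagggccaccctctttta
mtl-1 reverse: gccttcttctttttctcactgcc

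At sod-3 the daf-2(-) summit held 181 tags and the WT summit 126 tags, a log2 ratio of 0.52 (95% interval 0.19 to 0.86). This interval, like all intervals given here, covers counting error only. The WT peak spanned chrX:17092084-17092816 in WS230 coordinates, the distance of its centre from the transcription start site (TSS) was -268 bp, where negative values lie upstream, and the paired summits were 68 bp apart. The daf-2(-) peak held 254 tags against 171 tags in the WT peak. The fold enrichment of the summit over the local input background was 24.8 in daf-2(-) and 16.1 in WT. The height chose this pair, and fold enrichment rests on the same height. After scaling to aligned reads the log2 height ratio at sod-3 was 0.24, and no counting interval was worked out for this scaled value.

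At ZK742.4 the heights were 161 tags in daf-2(-) and 135 tags in WT, with summits 3 bp apart and the WT peak centre at -108 bp from the TSS. At mtl-1 the heights were 153 tags in daf-2(-) and 138 tags in WT, with summits 18 bp apart and the WT centre at -81 bp. The counting interval of the log2 ratio reached below 0 at both, running from -0.08 to 0.59 at ZK742.4 and from -0.19 to 0.49 at mtl-1. At mtl-1 the daf-2(-) peak held fewer tags, 296 against 318 in WT, and a lower fold enrichment, 16.6 against 17.6. Genes whose promoters the study assayed by PCR held 9 shared pairs. Of these, the 3 above were taller in daf-2(-) (33.3%, interval 12.1 to 64.6%), beside 6.17% of all pairs. The median log2 height ratio of the 9 pairs was -0.12. The study chose the assayed promoters itself, so their count is no independent evidence. The other 6 pairs lay at 4 genes. The heights were 111 tags in daf-2(-) and 113 in WT at C08E8.4, and 218 in daf-2(-) and 237 in WT at bcmo-2. At sqrd-1, which encodes a sulfide oxidising enzyme, they were 176 in daf-2(-) and 207 in WT. The 3 pairs at tps-1, which encodes a trehalose phosphate synthase, had 143, 73 and 93 tags in daf-2(-) against 167, 86 and 126 in WT. The WT peak centres of these tps-1 pairs lay at -267, 656 and 1825 bp from the TSS. The 9 pairs thus include peaks within a gene model, away from its promoter.

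Most taller pairs were taller by a small margin. The median log2 height ratio was 0.14 (95% interval 0.13 to 0.17) over the 291 taller pairs, -0.56 over the other pairs and -0.53 over all 4717 pairs. The study itself used input-subtracted, quantile-normalised read counts at coding genes bound in both strains. On that scale it reported higher average peaks in daf-2(-) for activated, repressed and unchanged genes. The raw heights here are an unlike measure, so their sign does not show less binding in daf-2(-). The daf-2(-) height was at least 1.1 times the WT height in 153 taller pairs, at least 1.25 times in 63, at least 1.5 times in 27 and at least 2 times in 14. Median heights were 94 tags in daf-2(-) and 79 tags in WT for the taller pairs. For the other pairs they were 65 tags in daf-2(-) and 99 tags in WT. The WT summits of the taller pairs were thus lower than those of the other pairs. Of pairs with the lowest WT heights (32 to 60 tags) 13.5% were taller in daf-2(-), and of pairs with the highest WT heights (196 to 339 tags) 1.51% were. Since the height itself chose the pairs, these values describe the selection and support nothing further. The number of taller pairs depended on the scale, since 74 pairs (1.57%) were taller after each strain's heights were scaled to its aligned ChIP reads, and 714 by fold enrichment.

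**Figure D1:**
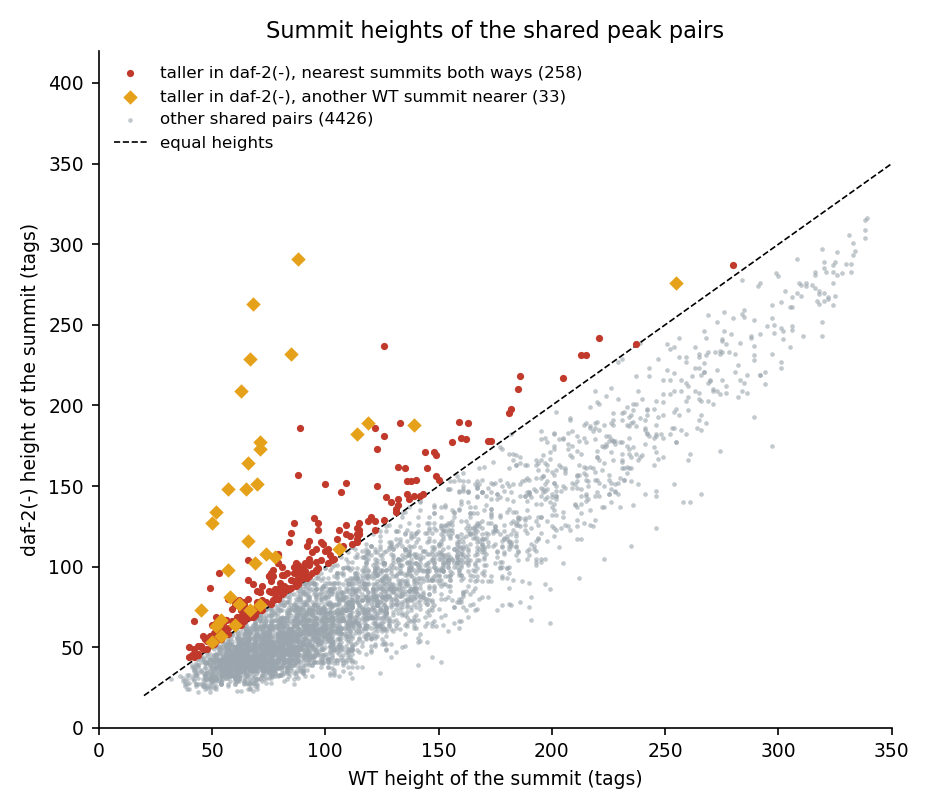
Height of the summit in daf-2(-) (vertical axis, tags) against WT (horizontal axis, tags) for each of the 4717 shared pairs, with the dashed line at equal heights. Points above the line are the 291 taller pairs, most of them close to it, and the diamonds that stand far above it are among the 33 pairs whose daf-2(-) summit lay nearer to another WT peak.

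The threshold ran through pairs that differed by 1 tag. In 23 pairs the daf-2(-) summit was higher by exactly 1 tag, in 22 the heights were equal, and in 27 the WT summit was higher by 1 tag. Just inside were mak-1, which encodes a protein kinase (238 tags in daf-2(-), 237 in WT), fbxa-13, an F-box gene (123 and 122), and C55A1.6 (115 and 114). Equal heights were found at ZK546.18 (239 tags in both strains), mlcd-1 (182) and 21ur-9514 (137). Just outside were ife-2, which encodes a cap-binding translation factor (141 tags in daf-2(-), 142 in WT), ZK867.6 (134 and 135) and C49F8.1 (133 and 134).

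The other deposited measures followed the height only in part. Fold enrichment was larger in daf-2(-) in 274 of the 291 taller pairs, against 440 of the 4426 other pairs and 15.1% of all pairs. Tags inside the peak were more numerous in daf-2(-) in 172 taller pairs and fewer in 118, and they were more numerous in 152 of the other pairs and in 6.87% of all pairs. These measures come from the same libraries as the heights, so their counts are a description. The median log2 ratio of tags was 0.07 in taller pairs and -0.58 in other pairs. At mak-1 the daf-2(-) peak, 2977 bp long, held 729 tags. The WT peak, which was 7637 bp long and overlapped 2 daf-2(-) peaks, held 2568 tags. The local background, which is the height divided by the fold enrichment, was lower in daf-2(-) in 83.8% of taller pairs and 86.7% of other pairs. Its median log2 ratio was -0.10 in taller pairs and -0.10 in other pairs. Many backgrounds sat near the lowest value of their list, in WT for 40.2% of taller and 33.7% of other pairs. In daf-2(-) these shares were 44.0% and 41.1%, so the equal medians do not show that the sets had equal backgrounds.

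The summits of the taller pairs were displaced more often than those of the other pairs, a feature that the rule used only in its choice of partner. Paired summits lay more than 300 bp apart in 17.2% of taller pairs (95% Wilson interval 13.3 to 21.9%) and in 4.38% of other pairs (3.82 to 5.03%). They lay within 100 bp in 77.0% of taller pairs (71.8 to 81.4%) and in 87.3% of other pairs (86.3 to 88.3%). The median distance was 42 bp in taller pairs and 37 bp in other pairs. The daf-2(-) peak overlapped more than 1 WT peak in 36 taller pairs (12.4%, interval 9.07 to 16.7%) and in 84 other pairs (1.90%, interval 1.54 to 2.34%). The WT peak overlapped more than 1 daf-2(-) peak in 7 taller pairs (2.41%, interval 1.17 to 4.88%) and in 189 other pairs (4.27%).

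Most of the widely displaced taller pairs were pairs where the pairing was not mutual. In 33 taller pairs the daf-2(-) summit was nearer to the summit of a different WT peak than the one it was paired with, and in 32 of these that nearer WT peak was at least as tall as the daf-2(-) peak. The exception was F21C10.10, where the daf-2(-) height of 189 tags also exceeded the 163 tags of the nearer WT peak. Among pairs whose summits were nearest to each other both ways, 6.59% of the 258 taller pairs (interval 4.15 to 10.3%) and 4.14% of the 4415 other pairs (3.60 to 4.77%) had summits more than 300 bp apart. Within 100 bp were 86.8% of these taller pairs and 87.5% of these other pairs.

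The largest height ratios belonged to such pairs. Of the 14 taller pairs with a ratio of at least 2, 13 had summits more than 300 bp apart and a different WT peak nearer to the daf-2(-) summit. At mir-34, a microRNA gene, the daf-2(-) summit held 263 tags and its WT partner 68 tags, 955 bp away, whereas the WT peak 6 bp from the daf-2(-) summit held 318 tags. At C03B8.3 the daf-2(-) height was 229 tags against 67 in the WT partner and 231 in the nearer WT peak. At K02B2.1 it was 209 tags against 63 in the partner and 273 in the nearer peak. The highest daf-2(-) summit of all taller pairs, 291 tags at the noncoding RNA gene ZC443.8, was set against 88 tags in its partner and 308 tags in the WT peak 26 bp away.

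The remaining pairs among the 10 largest ratios had the same arrangement. The daf-2(-) height was 232 tags against 85 in the partner and 274 in the nearer WT peak at 21ur-14021, a piRNA gene. It was 148 tags against 57 and 161 at B0041.5, and 134 tags against 52 and 183 at C02F4.12. It was 127 tags against 50 and 184 at mig-2, which encodes a Rac-like GTPase. At R11A5.6 it was 177 tags against 71 and 255, and the daf-2(-) list named this peak for pck-2, a gene of phosphoenolpyruvate carboxykinase. At R04E5.2 it was 164 tags against 66 and 197. In none of these 10 pairs did the daf-2(-) summit exceed the WT peak closest to it.

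Tall daf-2(-) summits were not limited to such pairs. Of the 10 taller pairs with the highest daf-2(-) summits, 6 were nearest both ways, among them F09A5.11, a noncoding RNA gene with 231 tags in daf-2(-) and 215 in WT and summits 12 bp apart. W02D9.4 had the widest displacement of all taller pairs, 3493 bp, with 237 tags in daf-2(-) and 126 in WT. Its daf-2(-) peak was 4507 bp long and held 1261 tags, against 226 tags in the WT peak. At the noncoding RNA gene W05H9.3 the heights were 276 tags in daf-2(-) and 255 in its WT partner, and the WT peak nearer to the daf-2(-) summit held 324 tags.

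**Figure D2:**
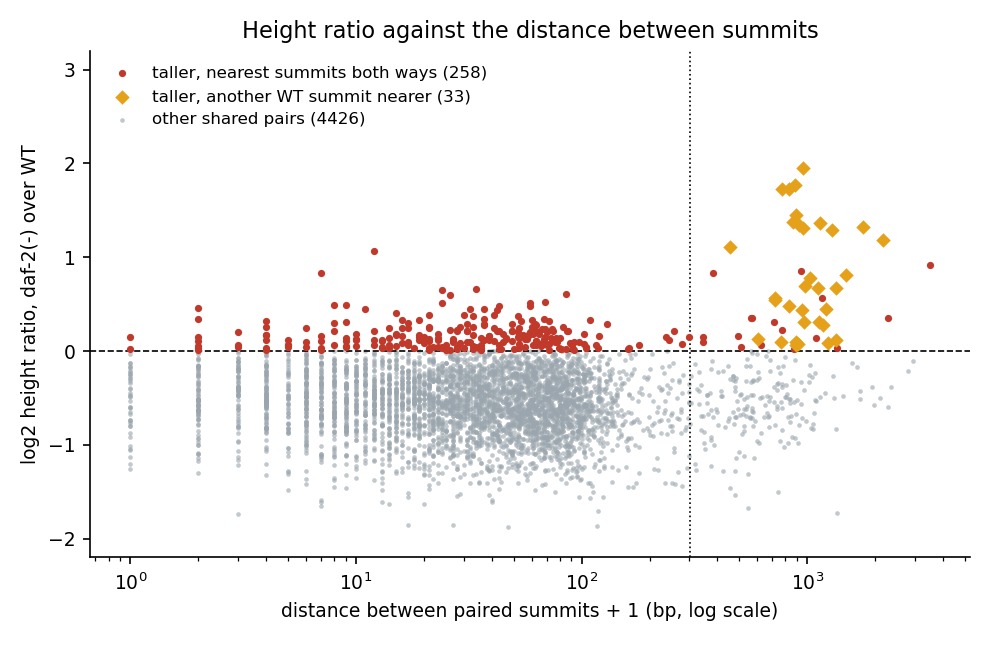
Log2 height ratio of daf-2(-) over WT (vertical axis) against the distance between the paired summits plus 1 (horizontal axis, bp, log scale) for each shared pair, with a dashed line at equal heights and a dotted line at 300 bp. The diamonds, 33 taller pairs with another WT summit nearer, all lie to the right of the dotted line and include 13 of the 14 pairs with a ratio of at least 2.

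The 224 taller pairs with summits within 100 bp had a median log2 height ratio of 0.13 (interval 0.12 to 0.15), and 32 of them reached a ratio of 1.25, 6 a ratio of 1.5 and 1 a ratio of 2. The 12 with the largest ratios, named after their values were seen, were led by a pair at 21ur-3446, a piRNA gene on chromosome IV, with 186 tags in daf-2(-) and 89 tags in WT and summits 11 bp apart. Its log2 ratio was 1.06 (interval 0.69 to 1.44), and tags in the peak numbered 347 in daf-2(-) and 161 in WT. The nearest shared pair, 1917 bp away at 21ur-10155, had 157 tags in daf-2(-) and 88 tags in WT with summits 6 bp apart. piRNA genes make short RNAs that silence foreign sequences in the germ line.

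C48C5.4, a noncoding RNA gene, followed with 104 tags in daf-2(-) and 66 in WT. dhs-13, which encodes a short-chain dehydrogenase, had 66 tags in daf-2(-) and 42 in WT, and its WT peak centre lay 4545 bp downstream of the TSS, within the gene model. E01G4.3 had 186 tags in daf-2(-) and 122 in WT, but its shorter daf-2(-) peak held fewer tags, 330 against 588. vamp-8, which encodes a vesicle fusion protein of the synaptobrevin family, had 151 tags in daf-2(-) and 100 in WT, and its WT peak centre lay at -99 bp from the TSS. sod-3, described above, came next.

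The other 5 had ratios between 1.39 and 1.42. They were D2005.3 (121 tags in daf-2(-), 85 in WT), F09F7.6 (189 and 133), W02D9.10 (173 and 123), F25B4.16 (80 and 57) and R53.5 (152 and 109). Since these 12 pairs were picked for their height ratios, the ratios are a description. Tags were fewer in daf-2(-) at E01G4.3 and D2005.3, where the WT peaks were longer and each overlapped 2 daf-2(-) peaks.

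By distance to the TSS, chromosome and gene type the taller pairs could not be told from the other pairs at these numbers. The WT peak centre lay within 0.5 kb upstream of the TSS in 104 taller pairs (35.7%, interval 30.5 to 41.4%) and in 1651 other pairs (37.3%, interval 35.9 to 38.7%). It lay between 0.5 and 2.5 kb upstream in 26.8% of taller and 23.5% of other pairs, and more than 2.5 kb upstream in 8.25% and 5.85%. It lay 0 to 0.3 kb downstream in 12.03% of taller pairs (8.78 to 16.3%) and in 15.1% of other pairs (14.05 to 16.2%). Relative to the assigned gene model, the centre was upstream in 70.8% of taller and 66.6% of other pairs and within it in 17.2% of taller and 21.5% of other pairs. The intervals of the taller pairs held the share of the other pairs in each of these positions.

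Chromosome X held 85 taller pairs (29.2%, interval 24.3 to 34.7%) and 26.2% of the other pairs. The autosomes I to V held 38, 39, 41, 36 and 52 taller pairs (13.1, 13.4, 14.1, 12.4 and 17.9%). They held 14.6, 14.6, 13.85, 14.6 and 16.2% of the other pairs. The central stretch of the autosomes, taken as the middle one of 3 equal parts and rich in conserved genes, held 48.5% of the autosomal taller pairs (41.8 to 55.3%) and 46.8% of the autosomal other pairs. Protein-coding genes were assigned to 67.6% of the taller pairs with a biotype (61.96 to 72.8%) and to 67.6% of the other pairs. Genes for ncRNA took 22.2% of taller and 22.6% of other pairs, and piRNA genes 4.93% (2.96 to 8.10%) of taller and 3.63% of other pairs. tRNA genes were assigned to 1 of 284 taller pairs, at F39B1.t1, and to 63 of 4380 other pairs. In 87.3% of taller pairs (83.0 to 90.6%) and 93.1% of other pairs (92.3 to 93.8%) both lists assigned the same gene, so pairs that name a different gene in each strain were more frequent among the taller pairs.

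**Figure D3:**
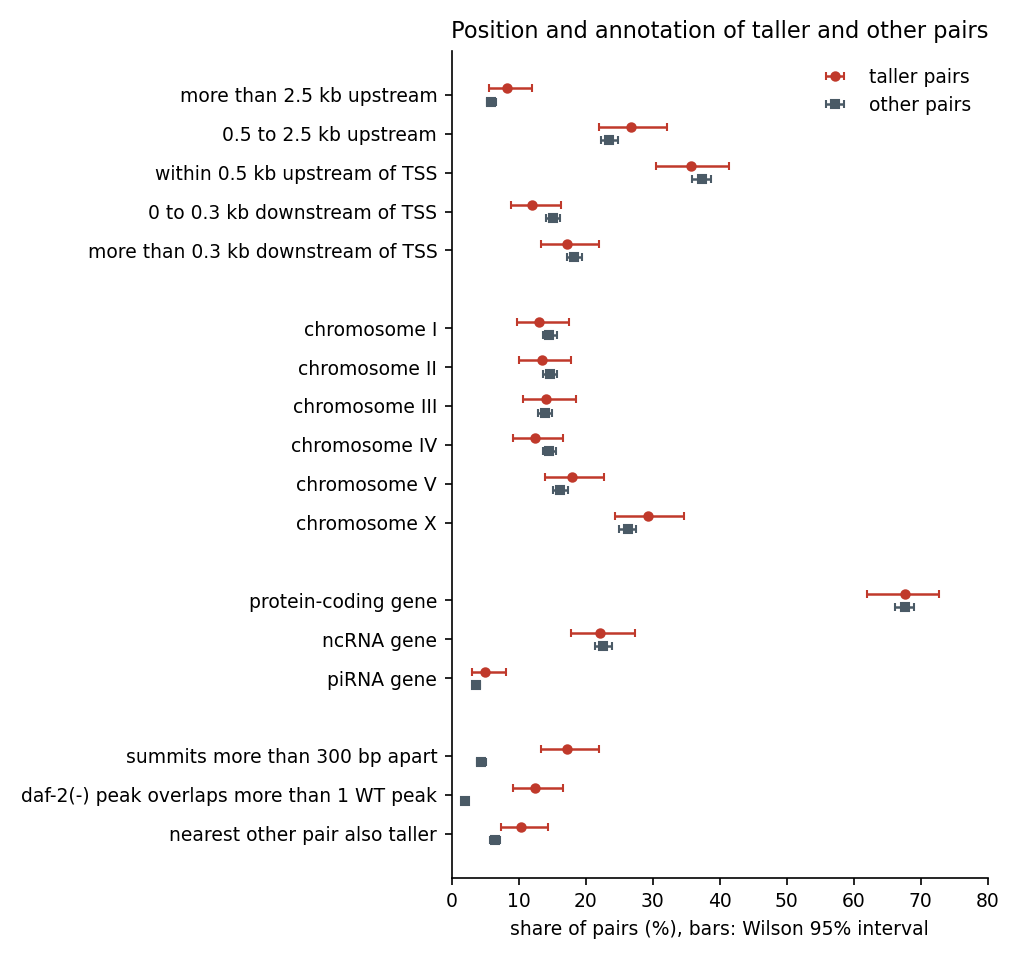
Share of pairs (horizontal axis, %) with each position, chromosome, gene type or pairing feature, for taller pairs (circles) above other pairs (squares), with Wilson 95% intervals as bars. Intervals overlap for the positions, chromosomes and gene types, and they are apart for summits more than 300 bp apart (17.2% against 4.38%) for daf-2(-) peaks over more than 1 WT peak (12.4% against 1.90%) and for the nearest other pair being taller too (10.3% against 6.44%).

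Taller pairs lay near other taller pairs somewhat more often. The nearest other shared pair was also taller for 30 taller pairs (10.3%, interval 7.32 to 14.3%), against 285 other pairs (6.44%, interval 5.75 to 7.20%). Among pairs whose summits were nearest both ways these shares were 11.2% (7.94 to 15.7%) for taller and 6.46% (5.77 to 7.22%) for other pairs. Among pairs with summits within 100 bp they were 10.7% (7.31 to 15.4%) for taller and 6.75% for other pairs. The upper limit for these other pairs was 7.59%, so the intervals overlapped under this restriction. The nearest shared pair was a median of 2968 bp away (2422 to 3588 bp) for taller pairs and 4577.5 bp (4367 to 4782 bp) for other pairs. For the taller pairs with summits within 100 bp it was 3818 bp (3023 to 4968 bp), an interval that holds the median of the other pairs, and for those with summits farther apart it was 1383 bp. Neighbouring peaks share a local background and can share reads, so these intervals treat as separate what is not.

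Runs of 3 adjacent taller pairs occurred at 2 places. On chromosome X, within 4399 bp from 2315985 to 2320383 (WS230), the heights were 287 tags in daf-2(-) and 280 in WT at T01B6.8, 242 and 221 at T01B6.9, and 169 and 149 at aakg-4. T01B6.8 and T01B6.9 are noncoding RNA genes, and aakg-4 encodes a gamma subunit of AMP-activated kinase, an energy sensor. Summits were 17, 20 and 14 bp apart at these pairs, and tags in the peak were also more numerous in daf-2(-) at all 3, with 486 against 301 in WT at aakg-4. The counting interval of the log2 height ratio reached below 0 at each of the 3. On chromosome I, within 4671 bp from 2658342 to 2663012, both taller pairs of F40E3.5 had 117 and 50 tags in daf-2(-) against 114 and 45 in WT. They were followed by the snoRNA gene F32B5.17 with 79 tags in daf-2(-) and 72 in WT.

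The taller pairs were assigned to 283 genes of the 4112 genes with a shared pair. For 197 of these genes the taller pair was the only shared pair, and 82 had another shared pair that was not taller. No gene had 3 taller pairs, and 8 genes had 2. Those with 2 were F40E3.5 and F40E3.9 on chromosome I, daf-5 on II, F09F7.6 and Y37D8A.4 on III, 21ur-13846 on IV, and C34D10.3 and R11.3 on X. At F40E3.9 the heights were 195 and 138 tags in daf-2(-) against 181 and 132 in WT. At R11.3 they were 102 and 61 in daf-2(-) against 87 and 53 in WT. At daf-5, which encodes a Sno/Ski family factor of the dauer TGF-beta pathway, 2 of 7 shared pairs were taller, each by 1 tag, with 102 and 55 tags in daf-2(-) against 101 and 54 in WT. They were the 2 taller pairs among the 26 pairs of dauer TGF-beta and steroid pathway genes (7.69%, interval 2.14 to 24.1%), beside 6.17% of all pairs.

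**Figure D4:**
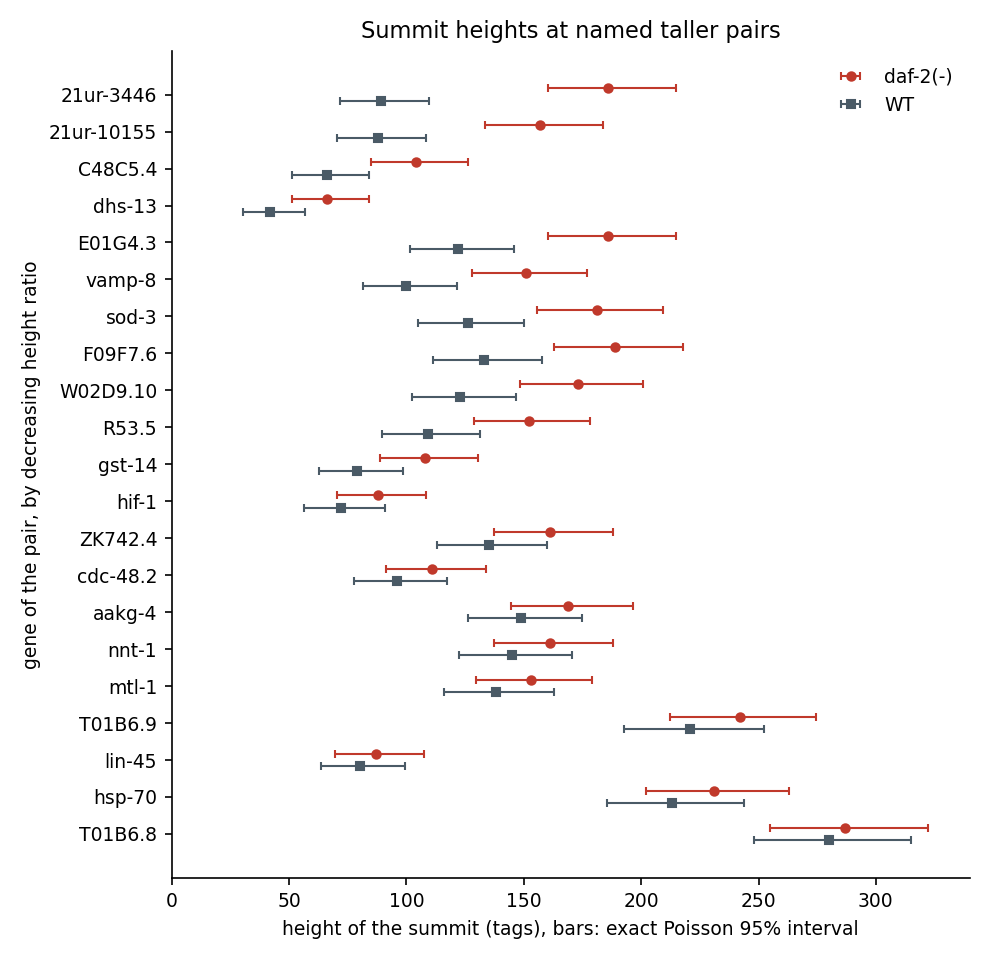
Height of the summit (horizontal axis, tags) in daf-2(-) (circles, upper mark of each row) and WT (squares, lower mark) at named taller pairs, ordered by decreasing height ratio, with exact Poisson 95% intervals as bars. At 21ur-3446 the bars stand apart (186 and 89 tags), and at T01B6.8 they overlap almost fully (287 and 280 tags).

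Genes of stress resistance and longevity that are known or proposed targets of DAF-16 held 25 shared pairs, of which 5 were taller in daf-2(-) (20%, interval 8.86 to 39.1%), beside 6.17% of all pairs. Besides sod-3, mtl-1 and aakg-4 these were nnt-1, which encodes a mitochondrial transhydrogenase that makes NADPH, and hsp-70, a heat-inducible chaperone gene. At nnt-1 the heights were 161 tags in daf-2(-) and 145 in WT, with summits 299 bp apart. At hsp-70 they were 231 tags in daf-2(-) and 213 in WT, with summits 3 bp apart and a fold enrichment of 28.1 in daf-2(-) against 18.9 in WT. The hsp-70 peak held fewer tags in daf-2(-), 357 against 372. The nnt-1 peak held more, 506 against 492, with a lower fold enrichment, 16.8 against 17.9. The counting interval reached below 0 at mtl-1, aakg-4, nnt-1 and hsp-70. After scaling to aligned reads their log2 height ratios were -0.14, -0.10, -0.13 and -0.17, and that of sod-3 was 0.24. The scaled ratios have no counting interval, so that of sod-3 is not shown to stand above 0. The median log2 height ratio over these 25 pairs was -0.50, beside -0.53 over all pairs. nnt-1 was also the 1 taller pair of 22 at genes of sugar and central carbon metabolism, and aakg-4 the 1 of 11 at genes of the AMPK and TOR pathways.

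Detoxification genes held 6 taller pairs of 60 (10%, interval 4.66 to 20.1%), an interval that holds the 6.17% of all pairs, and sod-3, mtl-1 and dhs-13 were among them. gst-14, which encodes a glutathione S-transferase, had 108 tags in daf-2(-) and 79 in WT with summits 31 bp apart. gst-8, of the same enzyme family, had 108 tags in daf-2(-) and 74 in its WT partner, but the WT peak nearer to the daf-2(-) summit held 160 tags. The median log2 height ratio of the list was -0.59.

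Genes of DAF-16 partners and of other stress regulators held 2 taller pairs of 20 (10%, interval 2.79 to 30.1%), beside 6.17% of all pairs. hif-1, which encodes the hypoxia-inducible factor, had 88 tags in daf-2(-) and 72 in WT, with a WT peak centre at -406 bp from the TSS. hlh-30, which encodes a TFEB-like factor that drives autophagy genes, had 77 tags in daf-2(-) and 76 in WT at a peak within the gene. Both also made up the 2 taller pairs of 33 at bHLH and bZIP factor genes. Autophagy and lysosome genes held 2 taller pairs of 22, at hlh-30 and at atg-11 (60 tags in daf-2(-), 52 in WT). Chaperone genes held 2 of 16, at hsp-70 and at cdc-48.2, which encodes a p97-type ATPase (111 tags in daf-2(-), 96 in WT).

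Genes of EGF, Ras and Notch signalling held 3 taller pairs of 8 (37.5%, interval 13.7 to 69.4%), beside 6.17% of all pairs. All 3 were in the Ras cascade and were taller by under 8 tags. The Raf kinase gene lin-45 had 87 tags in daf-2(-) and 80 in WT. The ERK gene mpk-1 had 68 tags in daf-2(-) and 65 in WT, and the scaffold gene ksr-1 had 44 and 42 with summits 620 bp apart. Each of the 3 counting intervals reached below 0, and the list's median log2 ratio was -0.44.

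Nuclear hormone receptor genes held 3 taller pairs of 106 (2.83%, interval 0.97 to 7.99%), beside 6.17% of all pairs. These were at nhr-114 (59 tags in daf-2(-), 53 in WT), nhr-120 (84 and 76) and nhr-88 (70 and 69), and the median log2 ratio of the list was -0.61. Genes of fat metabolism held 2 of 41. lbp-5, which encodes a lipid-binding protein, had 102 tags in daf-2(-) and 69 in its WT partner, with 140 tags in the nearer WT peak. far-3, of the family that binds fatty acids and retinol, had 54 tags in daf-2(-) and 48 in WT. Ubiquitin and proteasome genes held 2 of 21, at fbxa-13 and fbxb-72. The fbxb-72 pair, which the daf-2(-) list assigned to icl-1, the glyoxylate cycle gene, had 182 tags in daf-2(-), 114 in its WT partner and 252 in the nearer WT peak.

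piRNA genes held 14 taller pairs of 173 (8.09%, interval 4.88 to 13.1%), an interval that holds the 6.17% of all pairs. Of these, 11 were on chromosome IV, 2 on X and 1 on II, and the median log2 ratio over the 173 pairs was -0.56. Besides those above, 21ur-14321 had 92 tags in daf-2(-) and 66 in WT. microRNA genes held 2 of 24 (8.33%, interval 2.32 to 25.8%, beside 6.17% of all pairs), at mir-34 and at mir-271 (64 tags in daf-2(-), 61 in WT). piRNA genes are short and lie in clusters, so the assignment of a broad peak to 1 of them is uncertain.

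No taller pair was found among the 7 pairs of the genes that run from the insulin receptor to AKT. There was also none among the 4 of forkhead genes, 13 of homeobox genes, 4 of GATA factor genes, 14 of cuticle collagens and 17 of ribosomal proteins. The same held for 10 pairs of histone, 21 of lysozyme, lectin and saposin-like, 26 of muscle filament, 15 of Wnt pathway and 19 of p38 and JNK cascade genes. It also held for 16 pairs of ion channel and transmitter receptor, 10 of heterochronic, 8 of cell cycle, 2 of insulin-like peptide and 1 of neuropeptide genes. At a share of 6.17% over all pairs, the 26 muscle pairs still allowed a share of up to 12.9%, so a share below that of all pairs was not detectable at these numbers. The lists were drawn up with earlier results of these data known, the heights chose the members, and nothing is read from these counts about the lists.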

How the data were processed

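ChIP and input libraries of 4 strains (8 libraries) were sequenced, and the daf-2(-) and WT peak lists were analysed. Chromatin was pooled per strain before sequencing. The authors processed reads with CASAVA 1.8.2, trimmed them with Cutadapt, aligned them with Bowtie 0.12.7 to WS230 where only uniquely placed reads were kept, and used MACS 1.4.2 to call peaks of each ChIP library over its input. Peaks coinciding with those of the matching DAF-16-null strain were left out, and peaks were assigned to the nearest TSS. The deposited lists give the count of tags inside each peak, the height of the summit as a pileup signal, fold enrichment as the ratio of the summit over local input background, and the false discovery rate as a percent. A deposited MACS p-value score in the daf-2(-) list was not used. A deposited density file has 1 value column that names no sample. It was left aside, and its bin positions gave the chromosome extents.

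Heights were compared as deposited. The lists give depth only as tags in peaks. Aligned ChIP reads per strain, from the study's supplementary mapping summary, served for 1 scaling alternative, which lowers every daf-2(-) over WT ratio because daf-2(-) had more aligned reads. Shares have Wilson 95% intervals, medians exact order-statistic intervals, and height ratios exact binomial intervals on tags, all covering counting error only. With 1 library per strain no p-value was computed. Biotypes came from a RefSeq table of WBcel235, matched by name without its coordinates. Gene model positions come from the lists. Strain was taken from the lists' deposited names.

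Members and the 32 gene lists were chosen with earlier results of these data known. Named were the 10 taller pairs of largest ratio, the 10 of largest daf-2(-) height and up to 4 per list. All pairs assigned to genes with a PCR promoter, and 3 pairs on each side of the threshold, were named too. The 12 largest ratios with summits within 100 bp and the genes with 2 taller pairs were added after values were seen. Alternatives were pairing, overlap, strength measure and scaling. The pairing and counting steps were run on simulated lists of slightly shifted WT peaks, which could not test pairs with widely displaced summits. The software was Python 3.11.15 with scipy 1.17.1, pandas 2.3.3, matplotlib 3.10.9 and numpy 2.4.6.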

Additional observations from a re-analysis of the deposited data

How the results depend on the processing

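The number of taller pairs depended on how strength was measured. It was 291 of 4717 pairs (6.17%) in the main setting. With fold enrichment in place of height it was 714 (15.1%), and with heights scaled to the aligned ChIP reads of each strain 74 (1.57%). With a ratio of at least 1.5 it was 27 (0.57%). Scaled to the lowest local background of each list, an alternative chosen after seeing the data, it was 481 (10.2%). With fold enrichment of at least 10 in both strains it was 127 of only 1764 pairs, a share of 7.20%. Under the other 6 alternatives it lay between 224 and 324, or between 5.41% and 6.87% of the pairs compared. The share within 0.5 kb upstream lay between 31.1% and 48.1% under 14 alternatives. It left its counting interval at 42.5% for fold enrichment of at least 10 and at 48.1% for a 1 kb window. The other pairs had 40.4% and 47.1% there, and the wider window can only raise the share. The shares on X (25.9% to 29.6%) and at protein-coding genes (66.5% to 70.4%) stayed inside their intervals under all 11 alternatives. The median summit distance left its interval under 4. It was 29 bp with summits within 100 bp, a limit that can only lower it, and the other pairs then had 30 bp. The median of the taller pairs was 916 bp for ratios of at least 1.5, 67.5 bp with scaling to aligned reads and 25 bp for fold enrichment of at least 10. For pairs nearest both ways it was 35 bp, against 37 bp in the other pairs.

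Of 54 named taller pairs, 25 had a log2 ratio below 0 after scaling to aligned reads, 14 in tags and 3 in fold enrichment. Where the counting interval lay above 0, the sign turned in tags at fbxb-72 (-1.98), E01G4.3 (-0.83) and D2005.3 (-0.49). At these 3 the WT peak overlapped 2 daf-2(-) peaks, so the tags were counted over unlike stretches. WT and daf-2(-) lengths were 4281 and 650 bp at fbxb-72, 2547 and 1264 bp at E01G4.3, and 1610 and 799 bp at D2005.3. Against the WT peak nearest the daf-2(-) summit, an alternative chosen after seeing the data, it turned at mir-34 (-0.27), C03B8.3 (-0.013), K02B2.1 (-0.39), ZC443.8 (-0.082), 21ur-14021 (-0.24), B0041.5 (-0.12), C02F4.12 (-0.45), mig-2 (-0.53), R11A5.6 (-0.53), R04E5.2 (-0.26), fbxb-72 (-0.47), lbp-5 (-0.46) and gst-8 (-0.57). The causes were not tested. No paired analysis was possible because there was a single ChIP library per strain, and no library could be left out. A motif search in promoters was not run, since no promoter sequence was used here. At these numbers a share of the taller pairs was known to within about 6 percentage points.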
